A study of Homo sapiens with 8 samples.

Results

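Kinesins are motor proteins that walk along microtubules, or take microtubules apart, using the energy of ATP. In dividing cells some members build the mitotic spindle, separate its poles, move chromosomes and organise the final cut between daughter cells, whereas others carry vesicles, mitochondria and protein complexes through the cytoplasm between divisions. STARD9, also named KIF16A, is a very large member of the family that localises to centrioles and helps to keep the material around the spindle poles together in mitosis. The members described here are the protein-coding genes whose GENCODE symbol is KIF or KIFC followed by a number, together with STARD9. The rule gave 43 genes of the 57992 in the deposited tables, all of which were present. Of these, 17 act mainly in mitosis or on spindle poles, 17 carry cargo, and 9 are ciliary, atypical or little characterised. STARD9 was added to the family because it stood out in the comparison of A20 siRNA with control siRNA in these same samples, so its difference is given as a description without a test. The other members were chosen by their symbols alone.

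The data are RNAseq read counts from RKO, an established human colon carcinoma cell line with intact beta-catenin signaling. There were 4 samples transfected with control siRNA and 4 with an siRNA against A20, the ubiquitin-editing enzyme encoded by TNFAIP3, and both groups received recombinant human wnt3a at 50 ng/mL for 24 hours. No sample without wnt3a was analysed here, and whether the replicates were separate cultures or experiments is not given in the sources used here, so the p-values measure only the spread between these samples. The total counts lay between 21226451 and 34194273 per sample. Levels are given in CPM (counts per 1000000 reads, scaled by edgeR's TMM factors). In these samples 3 counts corresponded to between 0.0875 and 0.141 CPM, taken as the highest level that a count of 0 still allows.

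The knockdown was partial. TNFAIP3 ranged from 4.92 to 5.83 CPM with control siRNA and from 3.01 to 3.47 CPM with A20 siRNA, a log2FC (the log2 of the fitted fold change, A20 over control) of -0.71 (SE 0.10, adjusted p = 0.00258). Adjusted p-values here are those of edgeR, from its quasi-likelihood F-test with the Benjamini-Hochberg method over the 13412 genes tested. Of the markers checked for the cell type, EPCAM (17.7 CPM with control siRNA), KRT8 (14.1), KRT18 (97.6) and the intestinal factor CDX2 (16.9) were detected. CDH1, KRT19, KRT20 and LGR5 were listed at 0 in all 8 samples, and VIL1 had 2 counts in all, so the labelled epithelial origin rests on part of its marker set. The 3 leukocyte markers summed to at most 1.44 CPM in any sample, all of it CD68, with PTPRC and CD3E at 0. The sums of 3 fibroblast, 3 endothelial and 3 neuronal markers did not exceed 0.143, 0.0998 and 0.309 CPM. Control replicate 1 stood apart from the other control samples: without it 567 genes were called higher and 430 lower, against 85 and 82 with all samples. Results whose call depends on this sample, and the values of STARD9, are therefore given with and without it. Exons of 16 of the 33 tested kinesins overlap an annotated gene on the opposite strand, and those of 2 (KIF1B and KIF2A) a gene on the same strand. The former are KIF1C, KIF2A, KIF2C, KIF3A, KIF4A, KIF7, KIF9, KIF13B, KIF20A, KIF22, KIF23, KIF24, KIF27, KIFC1, KIFC2 and KIFC3. The strand setting of the counting and its handling of reads in shared exons are not given in the sources used here. The counts of these members may therefore hold reads of the overlapping gene or lack some of their own.

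Of the 43 kinesins, 33 had enough counts to be tested. Of the other 10, 5 were listed at 0 in every sample: KIF2B, a relative of the microtubule-shortening KIF2A and KIF2C, the neuronal motor KIF5C, and KIF6, KIF19 and KIF25. A count of 0 allows a level of up to 0.141 CPM in the least deep sample. The neuronal motors KIF1A and KIF5A had 4 and 25 counts over all 8 samples, and KIF12, KIF17 and KIF4B had 39, 38 and 31. KIF4B is an intronless copy of KIF4A, and reads that both could have produced are left out of uniquely mapped counts, so the level of KIF4B is uncertain. The kinesins with few or no reads therefore included KIF1A, KIF5A, KIF5C and KIF17, motors best known from neurons, while the broadly expressed relatives KIF1B, KIF1C and KIF5B were abundant.

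Levels of different genes were compared per kilobase of exon, as CPM per kb, averaged over the 8 samples with the SD between them. The most abundant member was KIF5B, the heavy chain of conventional kinesin, which carries many cargoes including mitochondria and lysosomes. It had 116 ± 3.05 CPM per kb (SD, n = 8), and 98.0% of the tested genes with a known length were lower. KIF1C, a motor of vesicle transport, followed with 43.8 ± 0.616 CPM per kb, and KIF11 (Eg5), the motor that slides spindle poles apart, with 43.1 ± 0.596. The ranges given by these SDs overlap, but both genes were measured in the same samples, so this overlap does not decide their order. Sample by sample KIF1C was the higher per kb in each, in some by little. With the longest transcript as length, KIF1C and KIF11 were at 47.5 and 44.7. KIF3B, a subunit of heterotrimeric kinesin-2, had 31.8 ± 0.652, and KIF2C (MCAK), which removes tubulin from microtubule ends and corrects faulty kinetochore attachments, had 29.6 ± 0.900.

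**Figure D1:**
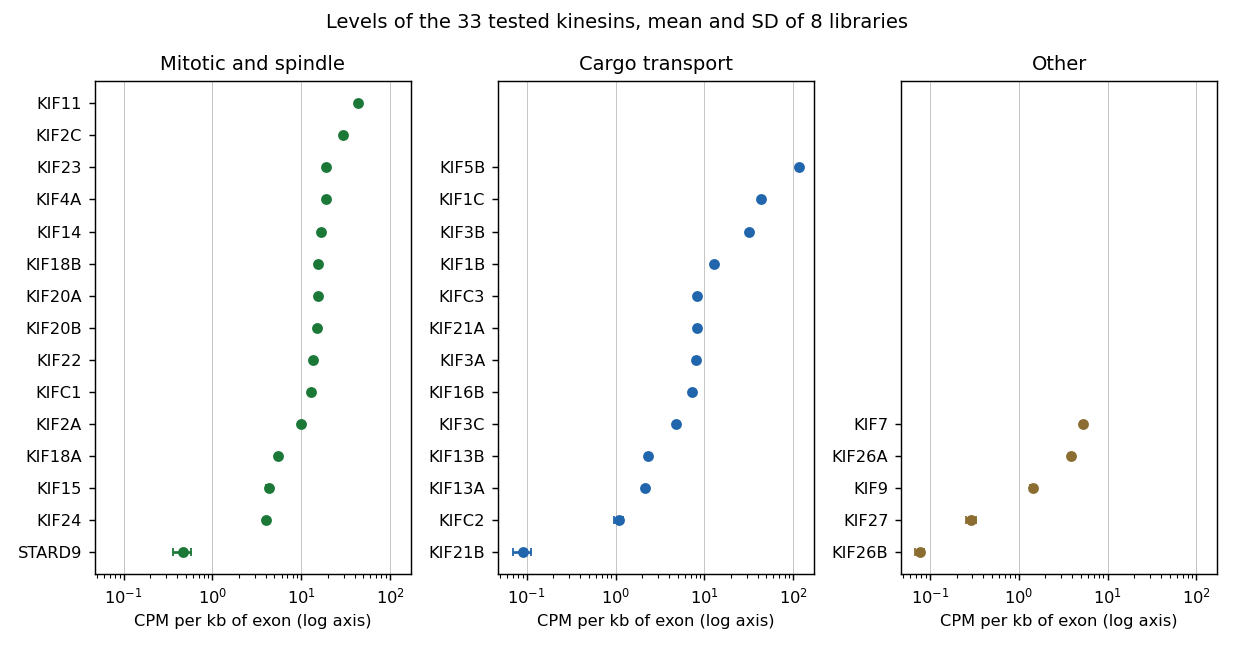
Levels of the 33 tested kinesins as CPM per kb of exon on a log axis, in 3 panels by role; points are means of the 8 libraries and bars are SDs. KIF5B lies highest at 116 CPM per kb, most mitotic members lie between 4.02 and 43.1, and STARD9 lies at 0.468.

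Mitotic members made up most of the abundant kinesins. Of the 17, 10 were above 10 CPM per kb, whereas 4 of the 17 transport kinesins and none of the 9 other members were. With the longest annotated transcript as length in place of the union of exons, these counts were 11, 6 and 0. The centralspindlin motor KIF23 (19.1 ± 0.402) and the chromosome motor KIF4A (19.0 ± 0.332) overlapped in level with the union of exons as length, but were at 33.7 and 19.8 CPM per kb with the longest transcript. KIF14, a motor of cytokinesis (16.5 ± 0.712), KIF18B, which shortens astral microtubules (15.5 ± 0.868), KIF20A (15.4 ± 0.419) and KIF20B (15.2 ± 0.559), both of late mitosis, lay close together, and the ranges given by the SDs of the last 3 overlapped. The chromokinesin KIF22 had 13.5 ± 0.393 and the minus-end motor KIFC1, which bundles spindle microtubules and clusters extra centrosomes, had 12.9 ± 0.381. Lower levels were found for KIF18A, which dampens chromosome movements (5.49 ± 0.243), for KIF15, which shares work with KIF11 (4.31 ± 0.259), and for the centriole protein KIF24 (4.02 ± 0.152). STARD9 was the lowest tested mitotic member, at 0.468 ± 0.108 CPM per kb, and the 30th of the 33 tested kinesins by level.

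Related motors differed in level within the same cells. KIF1C was 3.42 ± 0.0950 times (SD, n = 8) as abundant per kb as its relative KIF1B, and KIF2C was 3.01 ± 0.113 times as abundant as KIF2A, which works at spindle poles and in neurites. KIF18B exceeded KIF18A by 2.83 ± 0.186 times, whereas KIF20A and KIF20B were at a ratio of 1.02 ± 0.0581. In kinesin-2, KIF3A pairs with KIF3B or KIF3C and the adaptor KIFAP3 binds the pair. KIF3B was 3.94 ± 0.183 times as abundant as KIF3A, 6.58 ± 0.324 times as KIF3C and 6.09 ± 0.293 times as KIFAP3. Among the light chains that link KIF5 motors to cargo, KLC2 was the most abundant at 17.5 ± 0.412 CPM per kb, and KIF5B exceeded it by 6.63 ± 0.260 times. The centralspindlin partner of KIF23, RACGAP1, was at a similar level to the motor, with a KIF23 to RACGAP1 ratio of 0.773 ± 0.0362. These ratios use the union of all annotated exons as length. With the longest transcript, KIF1C to KIF1B was 2.12, KIF2C to KIF2A 2.49, KIF18B to KIF18A 2.40, KIF20A to KIF20B 1.19 and KIF23 to RACGAP1 0.983. Likewise KIF3B to KIF3A was 3.64, KIF3B to KIF3C 5.61, KIF3B to KIFAP3 5.03 and KIF5B to KLC2 4.55.

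The promoters of the mitotic members shared sequence features that the rule did not use. Genes expressed late in the cell cycle often carry a cell cycle genes homology region (CHR), a short element bound by the MuvB core of the DREAM complex, downstream of CCAAT boxes that are bound by NF-Y. Windows from 250 bases before to 50 bases after each annotated start (RefSeq, GRCh38.p14) were searched on both strands for the CHR, as TTTGAA (reverse complement TTCAAA) or the palindrome TTCGAA, and for CCAAT or its reverse complement ATTGG. A window was found for 35 of the 43 members and for all 17 mitotic ones. CHR letters were present in 12 of 17 mitotic kinesins, in 1 of 12 transport kinesins (KIF5B) and in 0 of 6 other members with a window, whereas 19.5% of all genes in the promoter table and 15.4% of the tested genes with a window held them. All 12 mitotic members had a match between 60 bases before and 40 bases after the start. These bounds were not set in advance, and the share of other genes with a match inside them was not computed. CCAAT letters were present in 13 of 17 mitotic, 4 of 12 transport and 2 of 6 other members. The shares were 39.7% of all genes and 43.6% of the tested genes with a window. Both were present in 11 of the 17 mitotic members and in 9.02% of all genes. KIF4B, the intronless copy of KIF4A that had too few counts to be tested, is among the mitotic members in each of these counts. The mitotic members without CHR letters in the window were KIF2A, KIF2B, KIF2C, KIF20A and STARD9. Of the 300-base windows themselves, 16.4% held the CHR letters and 34.6% the CCAAT letters.

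The 70 bases before the annotated start are shown for 4 abundant mitotic kinesins whose stretch holds both motifs, for STARD9, whose stretch holds a CCAAT box only, and for the transport kinesin KIF5B for comparison. Each runs 5′ to 3′ on the gene's own strand, and capitals mark the CHR and CCAAT letters, which do not overlap in these stretches. The stretches lie at chr10:92593060-92593129 (plus strand) for KIF11, chrX:70290034-70290103 (plus) for KIF4A, chr16:29790681-29790750 (plus) for KIF22, chr15:69414279-69414348 (plus) for KIF23, chr15:42575536-42575605 (plus) for STARD9 and chr10:32056426-32056495 (minus) for KIF5B.
KIF11: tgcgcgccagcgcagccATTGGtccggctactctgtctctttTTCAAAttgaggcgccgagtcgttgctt
KIF4A: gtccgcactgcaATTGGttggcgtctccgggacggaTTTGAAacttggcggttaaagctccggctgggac
KIF22: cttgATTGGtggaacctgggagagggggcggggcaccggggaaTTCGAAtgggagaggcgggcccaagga
KIF23: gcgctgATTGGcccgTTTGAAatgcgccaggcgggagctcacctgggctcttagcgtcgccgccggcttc
STARD9: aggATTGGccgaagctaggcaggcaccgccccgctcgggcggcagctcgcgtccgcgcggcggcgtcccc
KIF5B: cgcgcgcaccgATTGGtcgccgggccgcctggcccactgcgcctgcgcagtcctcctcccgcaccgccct

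In KIF11, KIF4A, KIF22 and KIF23 the inverted CCAAT box lay upstream of the CHR letters, with the CHR letters beginning at positions -28, -34, -27 and -55 relative to the annotated start. The CCAAT boxes of STARD9 and KIF5B began at -67 and -59. The CHR letters of KIF5B began at -140, upstream of the stretch shown. A match is a description of the letters and not of binding, and the lack of a match says nothing about the factor.

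**Figure D2:**
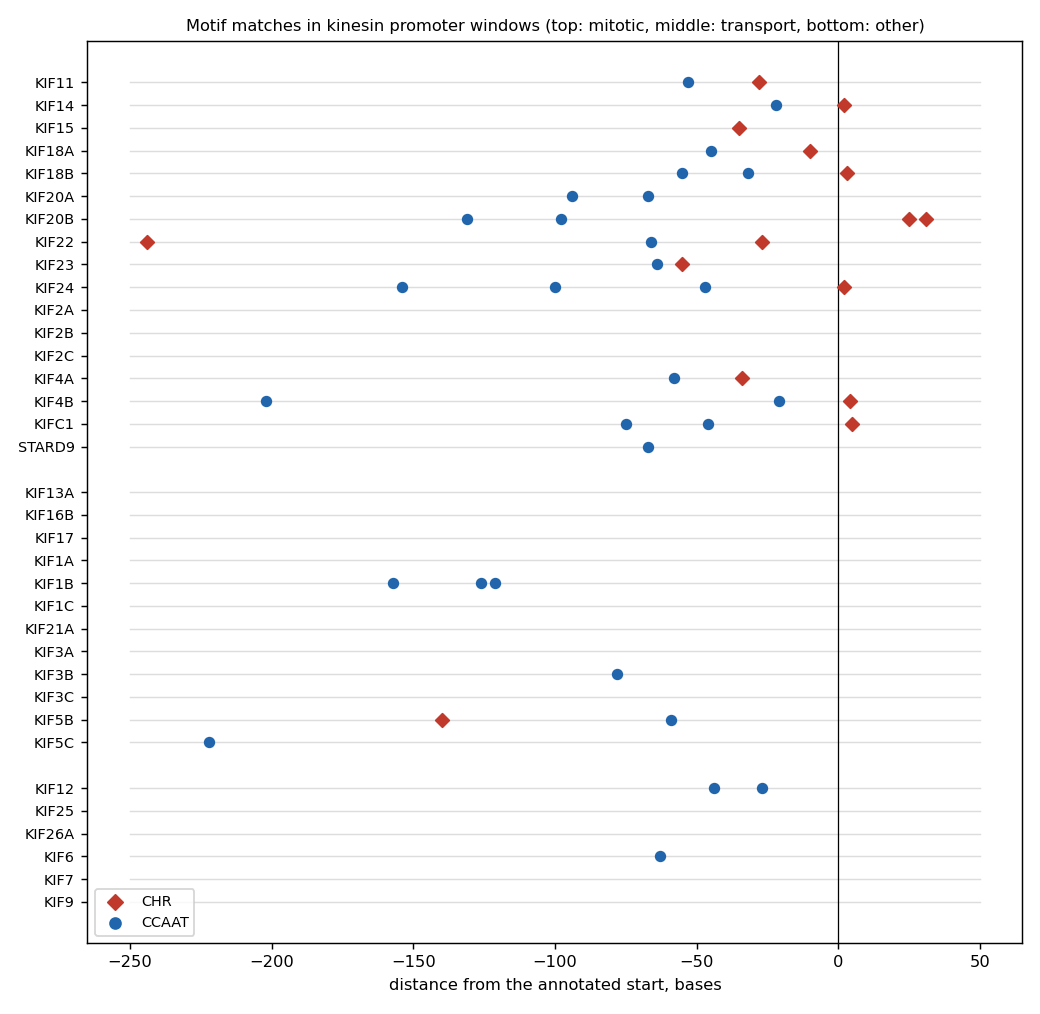
Positions of CHR (diamonds) and CCAAT (circles) letters in the promoter windows of the 35 kinesins with a window, as distance from the annotated start in bases, with mitotic members at the top, transport members in the middle and other members at the bottom. Each of the 12 mitotic members with CHR letters has a diamond near the start (KIF22 has another at -244 in a second window), and among the other 18 members only KIF5B has one.

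Between A20 siRNA and control siRNA the kinesin transcripts other than STARD9 differed little. Of the 32 tested members edgeR called 0 at an adjusted p of 0.05, against 1.25% of all tested genes. The adjusted p-values lay between 0.176 and 0.996. Before adjustment 2 of the 32 were under 0.05, both higher with A20 siRNA, where 16.2% of all tested genes were under it and 8.81% were under it and higher. DESeq2 and limma-voom also called 0 of them, against 1.53% and 1.23% of all genes, with 2 under an unadjusted 0.05 in each, although DESeq2 gave 4 members no adjusted p-value. The log2FC values lay between -0.15 and 0.14 with a median of 0.015, and the median over all tested genes was 0.0027. The standard errors had a median of 0.035, and for 27 of the 32 members the 95% interval lay within 0.2 of zero on the log2 scale in either direction. The 5 with wider intervals were KIF21B, KIF26B, KIF27, KIFC2 and KIF9, all of low level.

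By role, 9 of the 14 tested mitotic members other than STARD9 had a log2FC above 0, with a median of 0.021, and all of their 95% intervals lay between -0.11 and 0.19. Among the transport kinesins 9 of 13 were above 0 with a median of 0.024, and among the other members 1 of 5, with a median of -0.047. Above 0 were 51.6% of all tested genes. Summed over its members, the mitotic class averaged 222 ± 2.73 CPM per kb in the control samples (SD over 4 samples). In the A20 siRNA samples it averaged 226 ± 0.541 (SD over 4 samples). The groups overlapped, because control replicate 1, at 225.2, lay above A20 siRNA replicate 1, at 224.8. Control replicates 2 to 4, at 224.1, 221.1 and 219.3, lay below all A20 siRNA samples. The sums of the transport class averaged 246 ± 5.13 and 248 ± 4.56, and these groups overlapped as well. In bulk RNA, a change in transcripts per cell and a change in the share of cells in mitosis cannot be told apart.

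**Figure D3:**
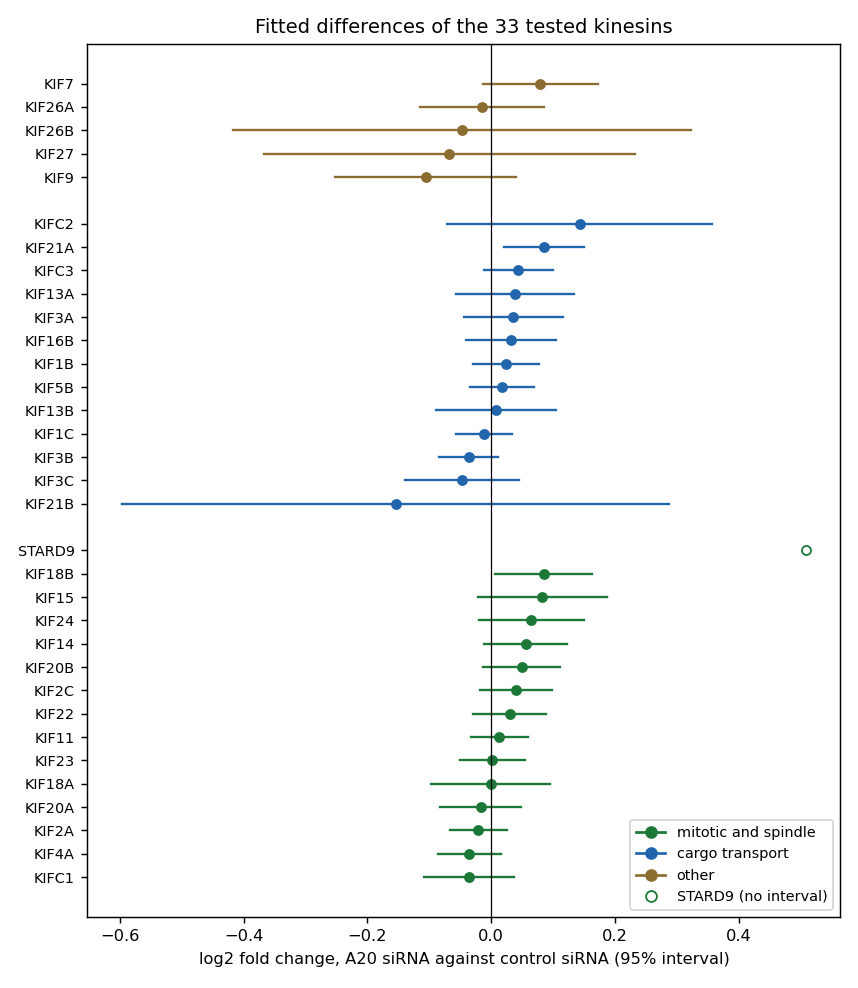
Log2 fold changes of the 33 tested kinesins, A20 siRNA against control siRNA, with 95% intervals from edgeR's quasi-likelihood fit and colours by role. STARD9 is drawn without an interval because it was chosen for its change; its point lies at 0.51, and the other points lie between -0.15 and 0.14.

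KIF5B (ENSG00000170759, chromosome 10, minus strand), the most abundant transport kinesin, had 701.1, 662, 684 and 658 CPM in control replicates 1 to 4 and 680.3, 663, 692 and 702 CPM with A20 siRNA. The groups overlapped, and the log2FC was 0.017 (SE 0.025, adjusted p = 0.780, edgeR). KIF11 (ENSG00000138160, chromosome 10), the most abundant mitotic kinesin, had 231, 228, 230.4 and 224 CPM with control siRNA and 228, 228, 232 and 234 CPM with A20 siRNA. Its groups overlapped as well, with a log2FC of 0.013 (SE 0.022, 95% interval -0.033 to 0.059, adjusted p = 0.821, edgeR). KIF7, a ciliary regulator of Hedgehog signaling and the highest of the other members at 5.27 ± 0.277 CPM per kb, had 29.3, 27.2, 28.4 and 26.8 CPM with control siRNA and 31.4, 30.0, 27.7 and 28.6 CPM with A20 siRNA. These groups overlapped too (log2FC 0.079, SE 0.045, adjusted p = 0.394, edgeR). Exons of KIF7 overlap those of TICRR on the opposite strand.

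The smallest p-values among the members other than STARD9 belonged to KIF21A and KIF18B. KIF21A, a kinesin-4 motor that restrains microtubule growth at the cell cortex, had 84.5, 78.9, 80.5 and 76.2 CPM in control replicates 1 to 4 and 83.3, 83.5, 87.1 and 86.5 CPM with A20 siRNA. All A20 siRNA samples were above control replicates 2 to 4, but A20 siRNA replicates 1 and 2 were below control replicate 1, so the groups overlapped. The log2FC was 0.085 (SE 0.031, adjusted p = 0.176, edgeR). Without control replicate 1 it was 0.11 with an adjusted p-value of 0.0255 in edgeR's test, a fit in which 4.19% of all tested genes were called higher. Without this control sample, 7 of the 32 members were under 0.05 before adjustment. The share of all tested genes under 0.05 before adjustment in this fit was not computed, so the count is not read as particular to kinesins. The log2FC of the 32 moved by a median of 0.021 in size and by 0.062 at most (KIF27). The adjusted p-value of KIF21A ranged from 0.0255 to 0.438 over all alternatives, and the log2FC was 0.064 after a correction for exonic length. KIF18B had 74.9, 71.4, 69.7 and 67.7 CPM with control siRNA and 69.7, 76.9, 77.9 and 77.9 CPM with A20 siRNA. A20 siRNA replicate 1 lay within the control range while the other 3 were above it, and the log2FC of 0.085 (SE 0.037) had an adjusted p-value of 0.267 in edgeR's test.

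In 2 of the 32 members the groups did not overlap, both lower with A20 siRNA, where 3.9% of all tested genes were lower without overlap. KIF4A, a motor that condenses chromosomes and sets the length of the central spindle, had 87.5, 88.4, 88.2 and 87.8 CPM with control siRNA and 87.2, 86.7, 85.0 and 84.2 CPM with A20 siRNA. The highest A20 siRNA sample lay just under the lowest control sample, and the log2FC was -0.035 (SE 0.025, adjusted p = 0.514, edgeR). KIF4A exons overlap PDZD11 on the opposite strand. KIF3B had 203, 196, 195 and 195 CPM with control siRNA and 194, 190, 194 and 192 CPM with A20 siRNA, and control replicate 1 lay above all other samples. Its log2FC was -0.037 (SE 0.023, adjusted p = 0.444, edgeR). No member other than STARD9 was higher without overlap, against 3.71% of all tested genes.

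STARD9 (ENSG00000159433, chromosome 15, 42575606 to 42720998, plus strand, GRCh38) had 10.4, 6.77, 7.68 and 7.02 CPM in control replicates 1 to 4 and 12.2, 10.6, 10.8 and 12.3 CPM with A20 siRNA. These levels rest on 2093 reads over the 8 samples. All A20 siRNA samples were above all control samples, but control replicate 1 was only 0.190 CPM below the lowest of them, while the other control samples lay together at the bottom. The means were 7.98 ± 1.69 and 11.5 ± 0.900 CPM (SD, n = 4 each), 1.44 times as high with A20 siRNA, a log2FC of 0.51. Without control replicate 1 the other 3 control samples averaged 7.16 ± 0.467 CPM, and the log2FC was 0.68. Over the fits that left out each sample in turn it lay between 0.43 and 0.68. The next largest difference among the tested members, in either direction, was that of KIF21B, at -0.15 (SE 0.21). No exon of another annotated gene overlaps those of STARD9.

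**Figure D4:**
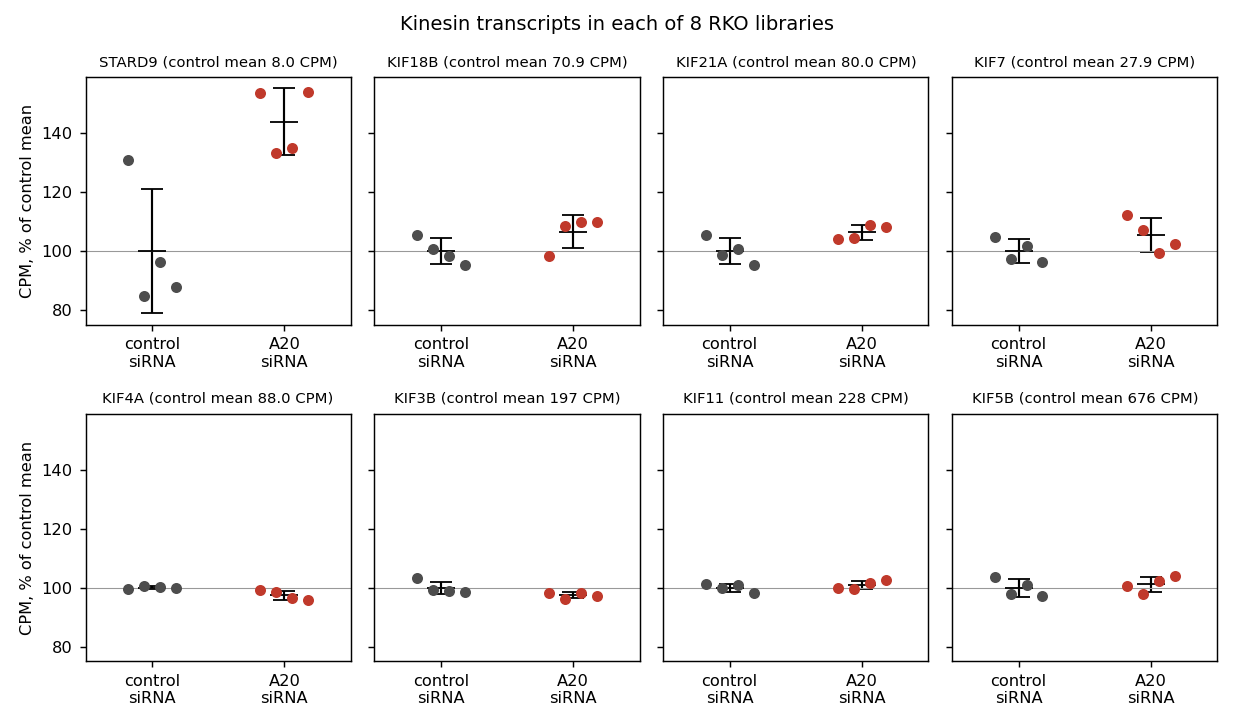
CPM of 8 kinesins in each library as a percent of the mean of the control libraries, on a common axis; points are libraries in replicate order from left to right, horizontal bars are group means and error bars are SDs (n = 4). STARD9 spreads widest, with control replicate 1 close to the A20 siRNA samples, whereas the groups of KIF11 and KIF5B lie on top of each other.

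STARD9 also had the longest exonic sequence of the tested members, 20776 bases as the union of its exons, and the libraries differed in how levels varied with exonic length. The trend of a library is given as Spearman's rho, across tested genes, between exonic length and the deviation of a gene from its mean over the 8 samples. It was 0.089, -0.17, -0.11 and -0.20 in control replicates 1 to 4 and 0.079, -0.075, 0.16 and 0.19 with A20 siRNA. Control replicate 1, the control library with a positive trend, was also the one with the highest STARD9 level, and the 3 control libraries with the most negative trends had the lowest. A20 siRNA replicate 2 had a negative trend and 10.6 CPM of STARD9. With each library corrected for its length trend the log2FC of STARD9 was 0.47. Whether the length trend has a part in the difference of STARD9 was not tested. Across all tested genes the log2FC rose with exonic length (rho 0.18 over 13316 genes, which are not independent replicates), whereas over the 32 tested kinesins other than STARD9 rho was -0.14. KIF1B, the next longest tested member at 18915 bases, had a log2FC of 0.024 (SE 0.025, adjusted p = 0.705, edgeR), and KIF26B, at 14404 bases, had -0.047 (SE 0.18, adjusted p = 0.930, edgeR).

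**Figure D5:**
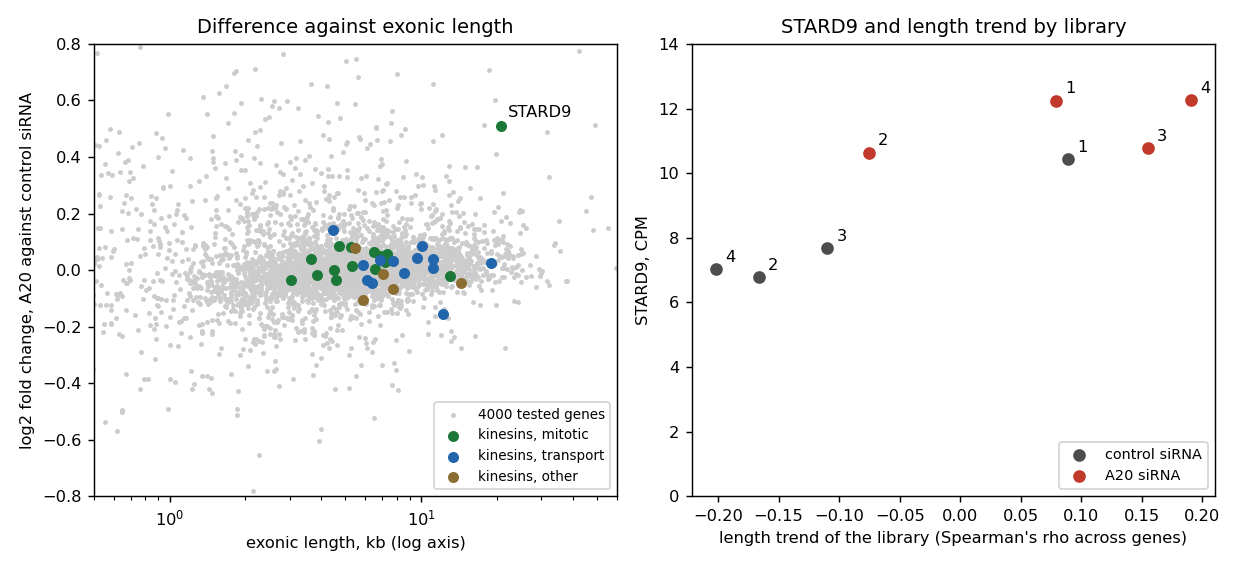
Left, log2FC against exonic length in kb (log axis) for a random subset of the tested genes (grey) and the tested kinesins (coloured by role). Right, CPM of STARD9 in each library against the length trend of that library, numbered by replicate; the control libraries 2 to 4 lie lowest at 6.77 to 7.68 CPM, and control replicate 1 lies at 10.4 beside the A20 siRNA libraries.

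The partners of the kinesins were examined as lists. Of 25 spindle partners, including the kinetochore motor CENPE, the KIF11-binding factor TPX2, the KIF4A-binding protein PRC1 and the augmin subunits, all 25 were tested and edgeR called 0, with 3 under 0.05 before adjustment (1.25% and 16.2% of all tested genes). CENPE had the highest log2FC, at 0.13 (SE 0.038, adjusted p = 0.0977, edgeR), from 91.5 ± 6.54 CPM to 100.1 ± 2.85 CPM (SD, n = 4 each). Control replicate 1 stood at 101 CPM and the other control samples at 86.7 to 91.0. Without control replicate 1, CENPE had a log2FC of 0.18 (adjusted p = 0.00119, edgeR) and ASPM, a spindle pole protein, one of 0.12 (adjusted p = 0.0233, edgeR). These 2 of the 25 were called higher in that fit, where 4.19% of all tested genes were called higher. HAUS4 had the lowest, at -0.11 (SE 0.066, adjusted p = 0.405, edgeR), and the median of the list was 0.014. NUMA1 was higher without overlap (log2FC 0.060, adjusted p = 0.266, edgeR), as were 3.71% of all tested genes. Of the 21 spindle partners with a promoter window, 10 held CHR letters, against 15.4% of the tested genes with a window.

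Of 19 kinesin light chains and cargo adaptors 18 were tested, and edgeR again called 0, with 5 under 0.05 before adjustment, against the same 1.25% and 16.2% of all tested genes. The median log2FC was 0.025. MAPK8IP3 (JIP3), which couples kinesin-1 and dynein to endosomes and lysosomes, had the highest value at 0.33 (SE 0.091, adjusted p = 0.0725, edgeR), from 11.8 ± 2.19 to 14.9 ± 0.957 CPM (SD, n = 4 each), and its groups overlapped. Control replicate 1 stood at 14.8 CPM and the other control samples at 9.68 to 11.9. The light chain KLC3 had the lowest value, at -0.17 (SE 0.24, adjusted p = 0.784, edgeR). KIFAP3, the adaptor of kinesin-2, went from 27.1 ± 0.666 to 25.0 ± 0.725 CPM without overlap (log2FC -0.12, SE 0.040, adjusted p = 0.140, edgeR). SPAG9 and KIDINS220 were higher without overlap (log2FC 0.073 and 0.082, adjusted p = 0.150 and 0.111, edgeR). Among all tested genes 3.9% were lower and 3.71% higher without overlap. Without control replicate 1, 3 of the 18 were called higher and 1 lower, where 4.19% of all tested genes were higher and 3.18% lower. They were MAPK8IP3 (log2FC 0.47, adjusted p = 0.000831), the kinesin receptor KTN1 (0.11, adjusted p = 0.00403) and the cargo protein KIDINS220 (0.093, adjusted p = 0.0345), and KIFAP3 on the lower side (-0.14, adjusted p = 0.0495), all from edgeR. No light chain or adaptor with a promoter window held CHR letters (0 of 13), against 15.4% of the tested genes with a window.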

How the data were processed

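RNAseq counts were analysed for 8 samples of RKO cells. The authors trimmed reads with Trimmomatic, mapped them to GRCh38.p7 with STAR and deposited raw per-gene counts of reads that mapped uniquely; tool versions, the GENCODE release and the strand setting are not given in the sources used here. GENCODE 44 (GRCh38) gave symbols, exonic lengths and coordinates for 56948 of the 57992 genes, joined on the Ensembl identifier. Members and gene lists were chosen with earlier results of these data known, and the motif search was chosen after seeing the data.

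Genes were filtered with filterByExpr (minimum count 10), normalized by TMM and tested with the quasi-likelihood test of edgeR 4.0.16 in R 4.3.3, without covariates, with Benjamini-Hochberg adjustment over 13412 genes and a threshold of 0.05. Standard errors came from the fold change and the F statistic. Values for every sample were given for STARD9, for members with an unadjusted p-value under 0.05, a call in any fit or groups without overlap, and for the highest member per role. Alternatives were RLE, other filters, DESeq2 1.42.0, limma-voom (limma 3.58.1), the replicate number as a block, a loess correction per sample for exonic length (span 0.5), both together, and each sample left out. The fit was also run on simulated counts with known fold changes. These held no length trend and no outlying sample, so they do not show how the fit deals with either. Replicates differed by more than sampling noise (chi-square per degree of freedom 1.31 to 3.69). Floors and count-based limits cover counting error only.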

Additional observations from a re-analysis of the deposited data

Results flagged for a closer look

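For the 33 tested kinesins, 66 sets of 4 values were searched for a value that lay far from the remaining values of its set. This held for 6 of them, and about 3.3 arise by chance. The gap of the far sample to its nearest neighbour is given as a share of the range of the group. Control replicate 1 was the far sample in 3 of the 6. It was high for KIF20B (109 CPM against 99.7 to 100.6 in the other control samples, share 0.897), for KIF3B (203 against 195 to 196, share 0.878) and for KIFC3 (79.8 against 78.5 to 78.7, share 0.839). Control replicate 3 was high for KIF23, at 126 CPM against 124.8 to 124.9 (share 0.888). Control replicate 4 was high for KIFC1, at 41.8 CPM against 38.8 to 39.3 (share 0.829). A20 siRNA replicate 1 was low for KIF18B, at 69.7 CPM against 76.9 to 77.9 (share 0.884).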

How the results depend on the processing

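Of the kinesins other than STARD9, 0 passed in either direction in the alternatives with all samples, and 0 to 1 were called higher with each sample left out, the call being KIF21A without control replicate 1. Of 143 alternative values for the log2FC of KIF3B, KIF4A, KIF5B, KIF7, KIF11, KIF18B, KIF21A, STARD9 and TNFAIP3, 142 kept their direction and their side of the threshold (for STARD9, moved by less than the SD between replicates), and KIF21A without control replicate 1 did not. DESeq2 gave TNFAIP3 no adjusted p-value. Over all genes, 82 were lower and 85 higher; these counts became 310 and 314 with no filter on counts, 212 and 262 when the replicate number was a block, 230 and 222 with the block and the length correction, and 6 to 430 and 6 to 567 with each sample left out. The cause was not tested. Deviations of same-numbered samples correlated by -0.023 to 0.10 and 5 of 8 samples correlated best with their own number. These values do not decide whether same-numbered samples were paired, and the sources used here do not give it. The main fit did not use the numbers as pairs. Under the block 0 of the 32 tested kinesins without STARD9 were called. With the longest transcript as length, KIF11 was at 44.7, KIF7 at 6.15 and STARD9 at 0.622 CPM per kb, and the members that moved by over 1.5 times were KIFC3 (8.35 to 22.6), KIF23 (19.1 to 33.7), KIF9 (1.44 to 2.54), KIF1B (12.8 to 22.4), KIF13A (2.16 to 3.48), KIF22 (13.5 to 20.6) and KIF21A (8.16 to 12.5). Members at 1 CPM or less are limited by depth.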

Other observations

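Cytoplasmic dynein, which walks towards the opposite microtubule end from most kinesins, and its activator dynactin were measured as a list of 27 genes. Of these 26 were tested and edgeR called 0, with 3 under 0.05 before adjustment (1.25% and 16.2% of all tested genes). The median log2FC was -0.016, and 7 of the 26 were above 0, as were 51.6% of all tested genes. Without control replicate 1 the smallest adjusted p-value of the list in edgeR was 0.0521, for DYNC1H1 (log2FC 0.15). The heavy chain DYNC1H1 had 26.9 ± 2.18 CPM per kb (SD, n = 8) and the highest log2FC of the list, 0.11 (SE 0.047, adjusted p = 0.242, edgeR), and the lowest belonged to NDE1 (-0.15, SE 0.070, adjusted p = 0.291, edgeR). DYNC1H1 has 38874 bases of exon. DCTN5 was higher without overlap (log2FC 0.036, adjusted p = 0.436, edgeR), and NDE1 was lower without overlap. Among all tested genes 3.71% were higher and 3.9% lower without overlap. Of the 24 dynein and dynactin genes with a promoter window, 2 held CHR letters and 14 CCAAT letters. Among the tested genes with a window the shares were 15.4% and 43.6%.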
